A study of Xenopus laevis with 90 samples.

Results

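*gatm* encodes glycine amidinotransferase, the enzyme of the first step of creatine synthesis. *Xenopus laevis* has an allotetraploid genome with a long (L) and a short (S) copy of many genes, and both copies of *gatm* were rows of both expression tables. *gatm.L* (gene 379386, protein-coding) lies on chromosome 3L from 110666632 to 110688685 and *gatm.S* (gene 108712892, protein-coding) on chromosome 3S from 49333860 to 49351222 (assembly Xenopus_laevis_v10.1). They were taken by symbol and are 2 of 37504 genes in the table of frog 1 and 2 of 36504 in that of frog 2. *gatm.L* had been singled out for its lower level in embryos depleted of H3K4me3 than in controls at 7.5 hours post fertilization (hpf), so every difference at 7.5 hpf that involves injected embryos is described here without a test. That its single pools lie apart at 7.5 hpf was part of the choice as well. Tests of *gatm.L* were kept to uninjected embryos and to the earlier stages, and other genes were tested at 7.5 hpf as well.

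The study asked whether trimethylation of lysine 4 of histone H3 (H3K4me3), a promoter mark present before the embryo starts to transcribe, matters for zygotic genome activation. Treated embryos received 11 ng of mRNA for Kdm5bwt, an active H3K4 demethylase, 345 pg of mRNA for H3.3K4M, a histone with methionine in place of that lysine, and 5 ng of mRNA for TIR1. The paper states that H3.3K4M acts as a dominant negative, holding H3K4 methyltransferases so that new methyl groups are not added. Control embryos received 4 ng of mRNA for Kdm5bci, the catalytically inactive form, with 345 pg of H3.3wt and 5 ng of TIR1 mRNA, so the dose of the Kdm5b mRNA differed between the arms and its effect cannot be told apart from that of demethylation. The paper states that the doses were set so that the injected proteins reached equal levels before genome activation. TIR1 lets the plant hormone auxin (IAA, 500 µM from 4.5 hpf) trigger degradation of a protein tagged for it. The paper states that the Kdm5b and H3.3 constructs of both arms carried the tag. With IAA these proteins were removed and the depletion was limited to a window before genome activation, and without IAA the depletion persisted. Wild type embryos were not injected and received no IAA. Each of the 15 groups (5 conditions at 5.5, 6.5 and 7.5 hpf) had 3 pools of 3 sibling embryos from each of 2 frogs, 90 libraries of total RNA from whole embryos in all. The pools are technical replicates of one frog's clutch, so the p-values of the fits within a frog measure the spread between pools of siblings. The exact permutation tests over both frogs exchange the same pools within each frog. Their p-values therefore measure that spread too, and not the spread between frogs. Values are TPM, a level corrected for transcript length and scaled to one total in every library, and the tables of the frogs were made separately, so levels set side by side across frogs carry that limit. Pools are named by frog and number, as in pool 2.3.

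The depth of the libraries is unknown because TPM keep no counts. rRNA genes took 11.4 to 37.4% of the TPM in frog 1 at 5.5 hpf and 2.37 to 4.09% in frog 2, against 4.04 to 8.19% and 2.36 to 8.47% at 7.5 hpf. Summed TPM of 8 copies of early zygotic genes (sia1, nodal3, mix1, gs17, tbxt and gsc) had medians of 6.59, 147 and 958 in frog 1 and 5.50, 140 and 594 in frog 2 at the 3 stages. Markers of differentiated tissue were near 0 at 7.5 hpf, *alb.S* and the *actc1* copies at most 0.0834 TPM and *prss1.L* at most 0.243 TPM, except the troponin gene *tnnc1.L*, which had medians of 4.46 TPM in frog 1 and 0.953 TPM in frog 2.

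Creatine is made in a pair of steps. GATM transfers the amidino group of arginine to glycine, which gives guanidinoacetate and ornithine, and GAMT then methylates guanidinoacetate with S-adenosylmethionine as the methyl donor. Creatine enters cells through the transporter SLC6A8, and creatine kinases (CKB in brain and many other cells, CKM in muscle, CKMT1B in mitochondria) charge it to phosphocreatine, a reserve that restores ATP quickly. In adult vertebrates synthesis is shared between organs, with kidney and pancreas known for GATM and liver for GAMT.

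*gatm.L* was close to absent before and early in genome activation and appeared between 6.5 and 7.5 hpf. At 5.5 hpf it was listed at 0 in 13 of the 15 libraries of frog 1, with a maximum of 0.0839 TPM, and ranged from 0 to 0.616 TPM in frog 2. At 6.5 hpf it reached at most 0.380 TPM in frog 1, where 6 libraries were at 0, and 0.0362 to 1.67 TPM in frog 2. At 7.5 hpf all 30 libraries held it, at 1.37 to 10.8 TPM in frog 1 and 0.789 to 11.0 TPM in frog 2.

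**Figure D1:**
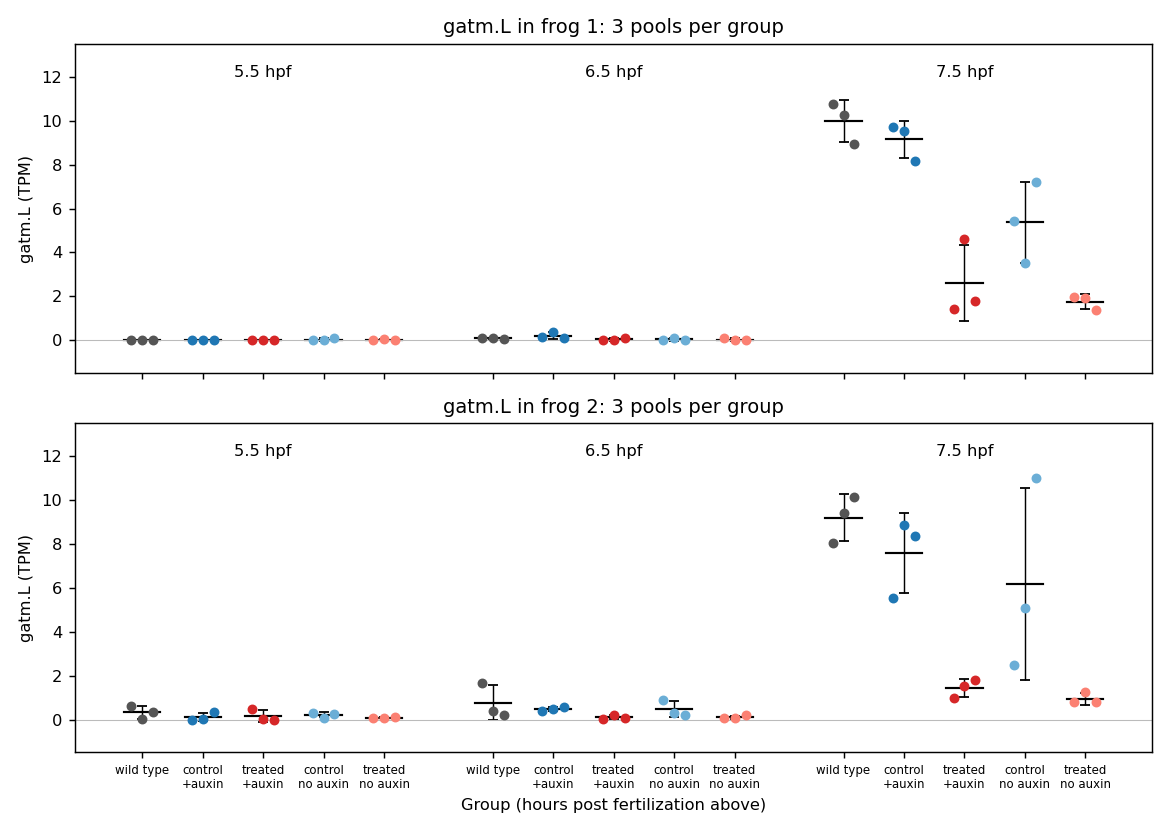
Level of gatm.L in TPM (linear axis) in every pool of the 15 groups, frog 1 above and frog 2 below, grouped by stage; points are pools, horizontal lines the mean of 3 pools and bars 1 SD. All pools lie at or below 1.67 TPM until 6.5 hpf, and at 7.5 hpf the treated pools (red and pink, at most 4.60 TPM in frog 1 and 1.79 TPM in frog 2) lie below the control pools of the same auxin condition (blue).

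The libraries of wild type embryos did not enter the treated minus control differences for which the gene was chosen. In wild type the 3 pools of frog 1 were listed at 0 at 5.5 hpf, stood at 0.0946, 0.0903 and 0.0652 TPM at 6.5 hpf and at 10.8, 10.3 and 8.95 TPM at 7.5 hpf. In frog 2 they were 0.616, 0.0324 and 0.323 TPM, then 1.67, 0.393 and 0.205 TPM, then 8.03, 9.40 and 10.2 TPM. Every wild type pool at 7.5 hpf was above every pool at 6.5 and at 5.5 hpf of its frog. In frog 1 the pools of 9.21% of all genes tested were separated upwards from 6.5 hpf and of 62.1% from 5.5 hpf, and in frog 2 those of 6.87% and 8.57%. The *gatm.L* pools at 5.5 and 6.5 hpf of frog 2 overlapped. From 6.5 to 7.5 hpf the mean rose 120-fold in frog 1 and 12.2-fold in frog 2, the latter 30.7-fold without wild type pool 2.1 of 6.5 hpf (1.67 TPM). On the log2(TPM + 1) scale, which understates the change of low values, this was a rise of 3.34 ± 0.182 (SE) in frog 1 and 2.62 ± 0.275 in frog 2 (limma across all genes, adjusted p = 2.71e-16 and 2.22e-09), against medians of -0.23 and -0.35 over all genes tested. In that contrast 7.58% of the 20891 genes tested in frog 1 and 6.62% of the 20277 in frog 2 were called higher. With both frogs in 1 exact permutation test, labels exchanged within each frog, the difference was 2.98 (two-sided, p = 0.005, the smallest that 400 arrangements allow; adjusted p = 0.0325 over the 13 gatm.L tests), with 6 of 6 pools above. From 5.5 to 7.5 hpf the rise was 3.45 ± 0.182 and 2.96 ± 0.275 (limma, adjusted p = 1.41e-17 and 1.35e-11; exact permutation p = 0.005, adjusted 0.0325). The medians over all genes were then 0.39 in frog 1 and -0.69 in frog 2, so that *gatm.L* rose by 3.07 and 3.65 relative to them, and the percentages of genes called higher were 56.2% and 8.37%. When the TPM were rescaled without rRNA and tRNA genes, whose share fell in frog 1 over the same hours, the rises from 5.5 hpf were 3.65 and 3.20. The step from 5.5 to 6.5 hpf did not pass: 0.12 ± 0.182 in frog 1 and 0.34 ± 0.275 in frog 2 (limma adjusted p = 0.571 and 0.269). Of the libraries in which *gatm.L* reached the 1 TPM of the filter, 15 of 15 in frog 1 and 13 of 14 in frog 2 were of 7.5 hpf. A gene chosen for being lower than controls at that stage is also likely to be high in its controls then. The tested rises to 7.5 hpf are thus partly fixed by the choice and the filter.

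At 7.5 hpf the 5 conditions had the same order of means in both frogs: wild type, control with IAA, control without IAA, treated with IAA, treated without IAA. In frog 1 the means were 9.99 ± 0.940 TPM (SD, n = 3 pools), 9.15 ± 0.850, 5.38 ± 1.85, 2.60 ± 1.74 and 1.75 ± 0.334 TPM. In frog 2 they were 9.19 ± 1.07, 7.60 ± 1.81, 6.19 ± 4.37, 1.44 ± 0.401 and 0.953 ± 0.280 TPM. Neighbours in this order mostly overlapped: wild type with control with IAA, and the treated groups with each other, in both frogs. The control groups overlapped in frog 2 only (in frog 1, 4.53% of all genes had control pools with IAA above all those without), and control without IAA overlapped treated with IAA in frog 1 only, because of one pool of each.

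Under window depletion the treated pools of frog 1 held 1.41, 4.60 and 1.78 TPM and their controls 9.73, 9.55 and 8.17 TPM. In frog 2 the treated pools held 1.00, 1.52 and 1.79 TPM and the controls 5.53, 8.89 and 8.37 TPM. All 6 treated pools were therefore below all control pools of their frog, which the choice of the gene largely fixes. Pools of 5.02% of the genes tested in frog 1 and 7.39% in frog 2 were separated in this direction. The differences were -1.60 ± 0.182 in frog 1 and -1.81 ± 0.275 in frog 2 on the log2(TPM + 1) scale, with 68 genes of 20891 and 55 of 20277 further below. The SE are pooled over all groups of a frog, most of them of earlier stages with low *gatm.L*. They do not follow the spread of the pools compared. On that scale the SD was 0.649 in treated and 0.124 in control pools of frog 1, and 0.245 and 0.325 in frog 2. The pooled SE thus understates the spread of the treated pools of frog 1.

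Under persistent depletion the treated pools held 1.98, 1.91 and 1.37 TPM in frog 1 and 0.793, 1.28 and 0.789 TPM in frog 2. Their controls held 5.42, 3.52 and 7.21 TPM in frog 1 and 2.48, 5.07 and 11.0 TPM in frog 2. Again no treated pool reached a control pool of its frog. The lowest control was 1.77-fold above the highest treated pool in frog 1 and 1.94-fold in frog 2, against 1.78-fold and 3.09-fold under window depletion. The pools of 3.69% and 3.18% of the genes were separated in this direction. The differences were -1.18 ± 0.182 and -1.71 ± 0.275, again with the pooled SE. The SD on the log2 scale was 0.182 in treated and 0.434 in control pools of frog 1, and 0.200 and 0.895 in frog 2. The pooled SE thus understates the spread of the controls, most of all in frog 2. The treated means in the 2 schemes stood at 26.0% (with IAA) and 17.5% (without) of wild type in frog 1, and at 15.6% and 10.4% in frog 2.

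Control embryos without IAA were also below wild type, at 53.9% of the wild type mean in frog 1 and 67.3% in frog 2. Controls with IAA were at 91.6% and 82.6%, but no wild type embryos received IAA, so auxin has no uninjected reference here. The injection difference was -0.82 ± 0.182 in frog 1, where the pools did not overlap (as for 10.4% of all genes in this direction), and -0.68 ± 0.275 in frog 2, where the highest control pool (11.0 TPM) was above all wild type pools. These SE are pooled over all groups too and understate the spread of the controls without IAA. IAA went with a difference of 0.71 in the controls of frog 1 and 0.42 in those of frog 2, and of 0.29 and 0.32 in treated embryos. Without pool 2.3 of the controls without IAA the injection difference of frog 2 was -1.14 and that of IAA in controls 0.88, and without its pool 2.1 they were -0.25 and -0.014.

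Treated embryos at 7.5 hpf can be set beside wild type embryos an hour younger, as values with no test. In frog 1 all 6 treated pools (1.37 to 4.60 TPM) were above the highest wild type pool of 6.5 hpf (0.0946 TPM), as were those of 7.78% of all genes tested. In frog 2 the treated pools (0.789 to 1.79 TPM) overlapped the wild type pools of 6.5 hpf (0.205 to 1.67 TPM).

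Single pools lay far apart in 3 injected groups at 7.5 hpf. The widest was control without IAA of frog 2, whose highest pool held 4.44 times the lowest, followed by treated with IAA of frog 1 at 3.25 times. The SD of log2(TPM + 1) was 0.895 and 0.649 in these groups, against medians of 0.132 and 0.112 over all genes. A closer reference is given by 26 other genes with a like course in wild type, under 1 TPM at 5.5 and 6.5 hpf and at least 5 TPM at 7.5 hpf in both frogs. In those groups 25 and 24 of the 26 had a smaller SD than *gatm.L*. The spread between its injected pools at 7.5 hpf was part of the choice of the gene, so its ranks there are a description. In control without IAA of frog 1 the SD was 0.434 and 19 of 26 were smaller. The treated and control groups with IAA of frog 2 had lower SDs, 0.245 and 0.325, but 22 and 21 of the 26 were smaller. Wild type pools were tighter, with SDs of 0.126 in frog 1 and 0.155 in frog 2 and 2 and 14 of the 26 below.

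In most injected groups the pool highest in *gatm.L* was also the highest in other activated genes. In control without IAA of frog 2, pools 2.1, 2.2 and 2.3 held 2.48, 5.07 and 11.0 TPM of *gatm.L*. The mean log2(TPM + 1) of the 1010 genes that rise in wild type, with *gatm.L* left out of them, was 3.85, 3.93 and 4.19. The mean of 500 genes that fall in wild type was 3.96, 3.78 and 3.56 in the same pools. Over the 8 injected groups, the pool highest in *gatm.L* was also highest in the rising genes in 7, highest in the 26 genes of like course in 6 and lowest in the falling genes in 5. In control with IAA of frog 1, pools 1.1 and 1.2 were nearly tied in the rising genes (4.1924 and 4.19237). Injected mRNA stood in the opposite order to *gatm.L* in some groups and not in others. The vectors carry globin untranslated regions, and the globin row *hbg1.L* stood at 3853 to 27973 TPM in treated, 1844 to 14260 TPM in control and at most 0.678 TPM in wild type embryos at 7.5 hpf. In those pools of frog 2 it held 6150, 2712 and 2240 TPM. In the treated pools with IAA of frog 1 it held 19228, 15235 and 24286 TPM where *gatm.L* held 1.41, 4.60 and 1.78 TPM. The pool highest in *gatm.L* was the one lowest in *hbg1.L* in 5 of the 8 groups. With 3 pools a group some such matches arise by chance, and neither this count nor those for the activated and falling genes were tested. In treated without IAA of frog 2 the pool highest in *gatm.L* (1.28 TPM) was also highest in *hbg1.L* (12848 TPM). In control with IAA of frog 1 the pool lowest in *hbg1.L* (6696 TPM) was also lowest in *gatm.L* (8.17 TPM). Treated pools also held more *hbg1.L* than controls, without overlap in frog 1 (15235 to 27973 against 5686 to 14260 TPM) and with overlap in frog 2 (3853 to 12848 against 1844 to 6150 TPM). The part of the injected dose and of the pace of activation in the *gatm.L* differences was not tested.

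**Figure D2:**
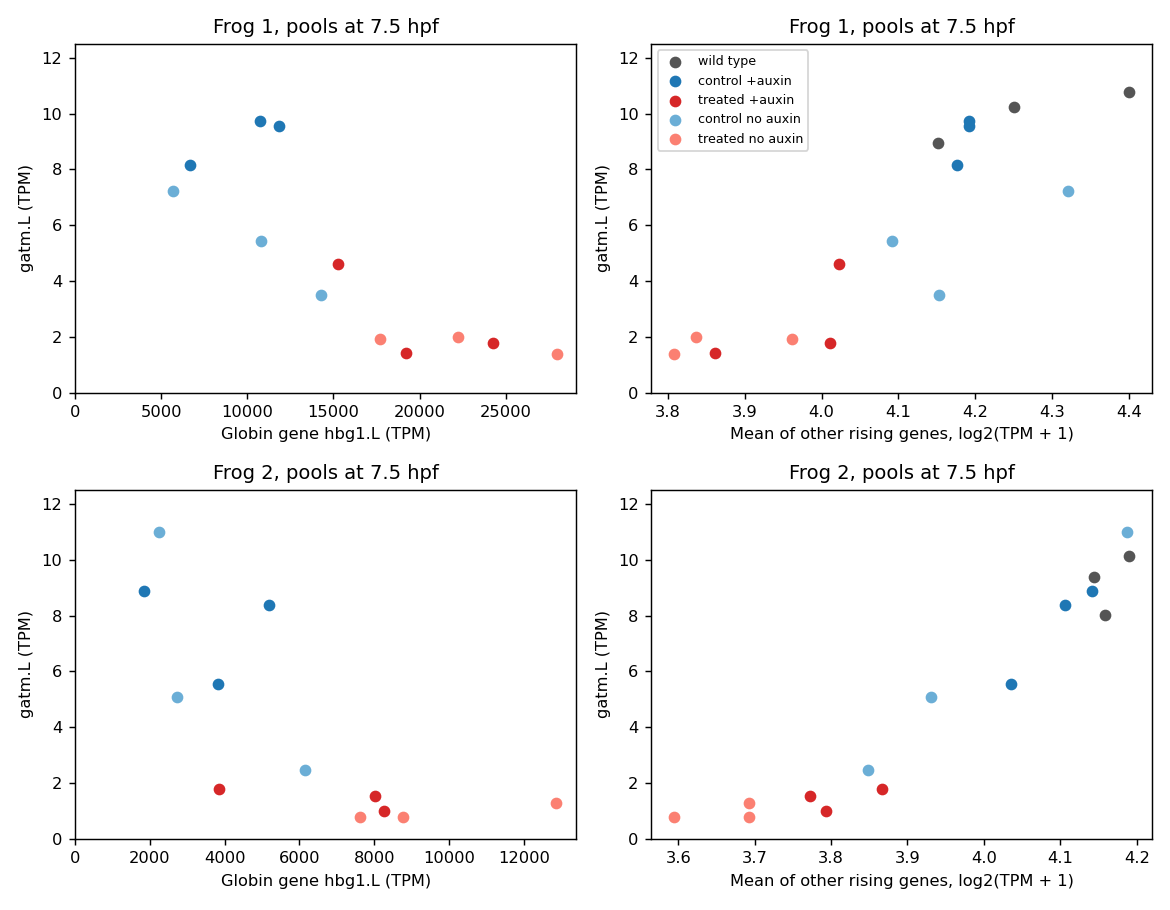
gatm.L (TPM) in each pool at 7.5 hpf against the globin row hbg1.L (TPM, left, injected groups) and the mean log2(TPM + 1) of the other genes that rise in wild type (right), frog 1 above and frog 2 below; each point is 1 pool, coloured by group. The pool with 11.0 TPM of gatm.L in frog 2 sits at 2240 TPM of hbg1.L and at 4.19 on the rising genes, and its sister pool with 2.48 TPM at 6150 TPM and 3.85.

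Against genes with the same course *gatm.L*, which had been chosen for its treated minus control differences, was near the extreme on the log2(TPM + 1) scale. That scale understates the change of genes at lower levels, so the rank is a description. The 27 late-onset genes, *gatm.L* included and chosen from wild type levels after the data had been seen, had median differences under window depletion of -0.85 in frog 1 and -0.55 in frog 2, against medians of 0.06 and 0.03 over all genes tested. Under persistent depletion they had medians of -0.84 and -0.76, against 0.08 and 0.16. Of the 27, 25 were below 0 in each frog under window depletion. Only 1 of them in frog 1 and none in frog 2 was further below than *gatm.L* in the window scheme, and 3 and 0 in the persistent scheme. For control injection against wild type the late-onset medians were 0.14 and -0.48, where 3 and 5 of the 27 were below *gatm.L*.

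**Figure D3:**
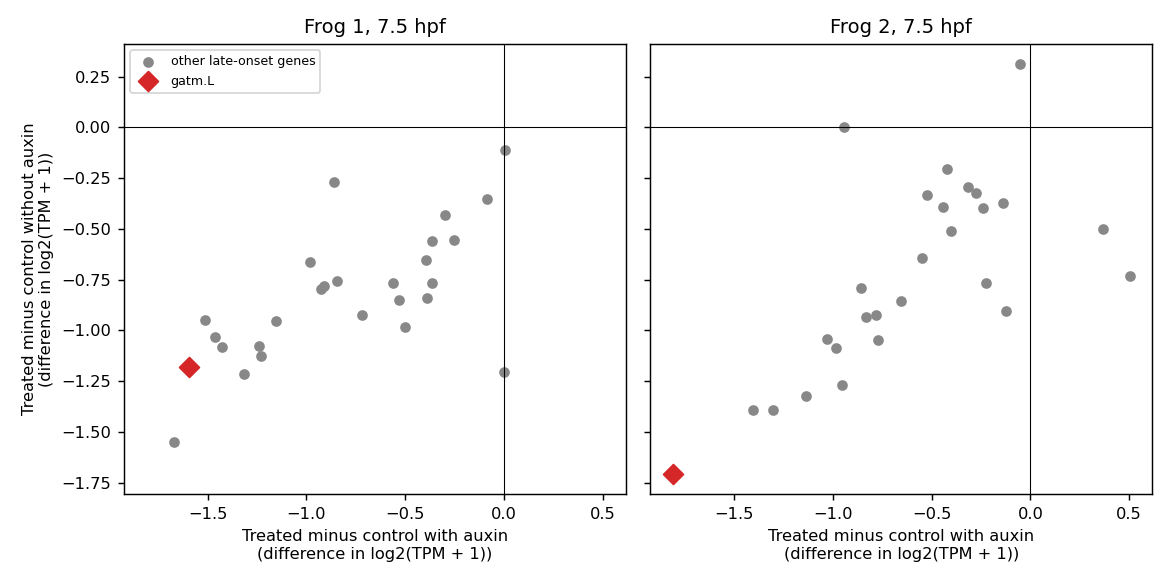
Treated minus control difference in log2(TPM + 1) at 7.5 hpf with auxin (horizontal) against without auxin (vertical) for the 27 late-onset genes in frog 1 (left) and frog 2 (right); each point is 1 gene and the red diamond is gatm.L. gatm.L lies at -1.60 and -1.18 in frog 1 and at -1.81 and -1.71 in frog 2, where no other late-onset gene is lower on either axis. It had been chosen for these differences, so its place is a description.

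Before 7.5 hpf the treated and control embryos could be tested. At 6.5 hpf with IAA, the treated pools held 0, 0 and 0.118 TPM in frog 1 and 0.0362, 0.222 and 0.0586 TPM in frog 2, and the controls 0.153, 0.380 and 0.0832 TPM and 0.388, 0.484 and 0.560 TPM. Of the 6 treated pools 5 lay below all controls of their frog, though all values were under 1 TPM. The difference was -0.31 on the log2(TPM + 1) scale (exact permutation within frogs, two-sided, p = 0.01, adjusted p = 0.0433 over 13 tests). The call rested on single pools: it was lost without treated pool 1.1 or 1.2 (exact permutation adjusted p = 0.0867) and without control pool 1.1, 1.2, 2.2 or 2.3 (exact permutation adjusted p = 0.065), while the difference stayed between -0.35 and -0.26. Neither frog passed on its own, with -0.21 ± 0.182 in frog 1 and -0.42 ± 0.275 in frog 2 (limma across all genes, adjusted p = 0.762 and 0.427). In those fits 0.101% and 0.952% of all genes were called lower, and in frog 2 the pools of 3.59% were separated in this direction. Without IAA the difference was -0.20 (exact permutation p = 0.07, adjusted p = 0.228), with 3 of 6 treated pools, all of frog 2, below all controls, as were those of 2.95% of all genes in that frog. At 5.5 hpf no contrast of treated with control passed, with differences of 0.02 with IAA and -0.10 without (exact permutation adjusted p = 1 and 0.442). Injection and IAA passed neither at 5.5 nor at 6.5 hpf in any of the 6 tests (exact permutation adjusted p from 0.496 to 1).

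At 6.5 hpf *gatm.L* was set against *lin28a.S*, whose product blocks let-7 microRNA maturation, *pcdh8.2.L*, a protocadherin of paraxial mesoderm, and *foxd4l1.1.L*, a forkhead factor of the early neural plate, which had been ranked beside it at 7.5 hpf. With IAA, *lin28a.S* and *foxd4l1.1.L* differed by -0.57 and -0.67 and *pcdh8.2.L* by -0.01, against -0.31 for *gatm.L*. None of the 6 differences between *gatm.L* and these genes passed after adjustment (exact permutation within frogs, adjusted p from 0.06 to 0.165), although the one from *pcdh8.2.L* with IAA passed without control pool 1.3 (-0.35, exact permutation adjusted p = 0.03) and that from *lin28a.S* without IAA passed without control pool 1.2 (0.35, exact permutation adjusted p = 0.045). *pcdh8.2.L* was at most 0.0327 TPM on average in the treated and control groups, close to its floor of 0.

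*gatm.S* stayed under 1 TPM in all 90 libraries and so passed no filter and entered no test. Its maximum was 0.553 TPM in frog 1 and 0.399 TPM in frog 2. It was highest at 7.5 hpf, with wild type means of 0.319 ± 0.0458 TPM in frog 1 and 0.259 ± 0.197 TPM in frog 2. Treated means, with and without IAA, were 0.182 and 0.153 TPM in frog 1 and 0.138 and 0.125 TPM in frog 2, and the control means 0.387 and 0.225 TPM and 0.215 and 0.162 TPM. The order of treated below control was that of *gatm.L*, but pools overlapped in every one of these pairs. *gatm.S* made up 2.55 to 4.06% of the summed *gatm* level in wild type and control groups and 6.53 to 11.6% in treated groups. The copies are alike in sequence, and reads that both could give cannot be told apart in TPM.

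Among the other members of creatine metabolism some were abundant from 5.5 hpf, some appeared late and some stayed near 0. The second enzyme and the brain-type kinase were already abundant before activation. *gamt.L* stood at 39.2 ± 8.21, 60.9 ± 7.93 and 50.8 ± 2.49 TPM over the 3 stages in wild type embryos of frog 1. In frog 2 its wild type means were 71.5 ± 5.77, 65.2 ± 15.7 and 44.3 ± 4.17 TPM. *gamt.S* was lower, between 4.63 and 9.22 TPM on average. *ckb.L* and *ckb.S* held 91.4 to 254 TPM on average. At 7.5 hpf window depletion moved none of these past the test, with *gamt.L* means of 45.1 TPM (treated) and 46.5 TPM (control) in frog 1 and 43.3 and 49.2 TPM in frog 2 (limma adjusted p = 0.988 and 0.689). Under persistent depletion *ckb.S* passed in frog 2 as higher, by 0.22 (limma adjusted p = 0.0441), where the median of all genes was 0.16 and 13% of genes were called higher. That call was lost after median-ratio rescaling (0.031, limma adjusted p = 0.798) and without treated pool 2.2 or 2.3 or control pool 2.2 or 2.3. The *ckmt1b* copies stayed at or under 0.391 TPM and *ckm.S* at or under 0.151 TPM.

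**Figure D4:**
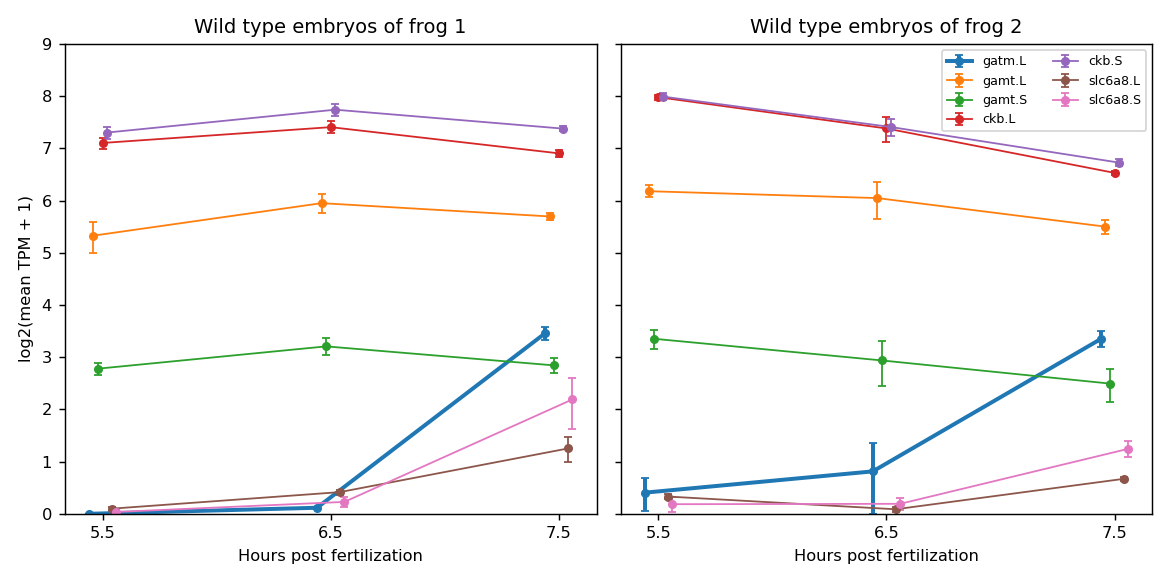
Mean level in wild type embryos at 5.5, 6.5 and 7.5 hpf, as log2(mean TPM + 1), of gatm.L and of 6 other creatine genes, frog 1 left and frog 2 right; bars show the mean plus and minus 1 SD of 3 pools on that scale. gamt and ckb copies are high from 5.5 hpf on, while gatm.L rises to 9.99 TPM in frog 1 and 9.19 TPM in frog 2 at 7.5 hpf and slc6a8.S to 3.57 and 1.37 TPM.

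The creatine transporter *slc6a8.S* had the same late course as *gatm.L*. In wild type embryos it went from 0.0248 and 0.136 TPM at 5.5 hpf to 3.57 ± 1.49 TPM in frog 1 and 1.37 ± 0.248 TPM in frog 2 at 7.5 hpf. With IAA, the treated pools held 0.597, 0.893 and 1.11 TPM in frog 1 and the controls 3.01, 2.42 and 2.67 TPM. In frog 2 the treated pools held 0.264, 0.332 and 0.244 TPM and the controls 1.24, 1.02 and 1.27 TPM. No treated pool reached a control pool, and the transporter was lower by -0.99 in frog 1 and -0.76 in frog 2 (limma across all genes, adjusted p = 0.00464 and 0.000185). Pools of 5.02% and 7.39% of all genes were separated in this direction, and 0.579% and 1.87% of all genes were called lower. Without IAA the treated pools held 0.836, 0.936 and 0.715 TPM against 1.36, 1.69 and 4.87 TPM in frog 1, and 0.158, 0.303 and 0.271 TPM against 0.379, 0.944 and 1.27 TPM in frog 2. Again the pools did not overlap, with differences of -0.87 and -0.56 (limma adjusted p = 0.0195 and 0.00465). Without IAA 3.69% and 3.18% of all genes had pools separated in this direction, and 0.641% and 2.19% were called lower. In frog 2 the maximum of *slc6a8.S* was 1.58 TPM, and at 7.5 hpf only wild type and control pools reached the 1 TPM of the filter. Its calls in frog 2 therefore concern a gene near the floor that passed the filter through its higher groups at that stage. Both calls of frog 1 were lost with a pseudocount of 0.1 in place of 1 (limma adjusted p = 0.171 and 0.276). With IAA the call of frog 1 was also lost without treated pool 1.1 (-0.88, limma adjusted p = 0.0904), while that of frog 2 held without any single pool. Without IAA the call of frog 1 was lost without treated pool 1.1 or 1.3 or control pool 1.3, the last leaving -0.46 (limma adjusted p = 0.416), and that of frog 2 without control pool 2.3 (-0.40, limma adjusted p = 0.121). The other copy, *slc6a8.L*, was lower without IAA in frog 1 (-0.61, limma adjusted p = 0.0268, from 1.21 TPM in controls to 0.442 TPM in treated pools) and did not pass with IAA (-0.45, adjusted p = 0.247). The former call was lost with a pseudocount of 0.1 (limma adjusted p = 0.310) and without treated pool 1.1 or 1.3 or control pool 1.2 or 1.3. At 7.5 hpf only wild type and control pools of frog 1 reached 1 TPM of this copy. In frog 2 it stayed at or under 0.634 TPM and was not tested.

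The arginine and ornithine, polyamine, glycine and methyl donor pathways meet creatine synthesis at its substrates and its by-product ornithine. Of 47 symbols in these and the creatine list, leaving *gatm* out, 42 were found, as 61 gene copies, of which 50 were tested in each frog. Under window depletion at 7.5 hpf, 1 of 50 was called lower in frog 1 and 4 of 50 in frog 2, where 0.579% and 1.87% of all genes were, and none was called higher (0.0431% and 1.28% of all genes). Under persistent depletion 2 of 50 were lower in frog 1 and 6 of 50 in frog 2 (0.641% and 2.19% of all genes), with 0 higher in frog 1 and 6 in frog 2 (0.0527% and 13% of all genes). In frog 2 this split became 2 higher and 8 lower after median-ratio rescaling. The rescaling took the number of all genes called higher from 2633 to 642 and of those called lower from 445 to 830 (20277 and 20419 genes tested). *slc6a8.S* alone was called in both frogs, in either scheme, with the limits given above. The median difference over the 50 copies was 0.02 in both frogs in the window scheme, against 0.06 and 0.03 over all genes. At 6.5 hpf no copy was called in both frogs.

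Some of these genes also rose in wild type embryos. From 5.5 to 7.5 hpf 6 of the 49 copies tested in both frogs were called higher in both. Of these *slc6a8.S*, the muscle creatine kinase *ckm.L* and the arginase *arg1.L*, which splits arginine into urea and ornithine, were at or under 0.136 TPM on average at 5.5 hpf. The arginine transporter *slc7a3.L* (3.34 TPM in frog 1 and 2.64 TPM in frog 2 at 5.5 hpf) and *sat1.L* and *sat1.S*, which acetylate polyamines for breakdown (29.5 to 53.2 TPM), were already present. In frog 1 *sat1.L* rose only 0.118 above the median of all genes. It was not called higher in both frogs after median-ratio rescaling. The share of all genes called higher in both frogs is not given here. The counts per frog depended on the scale. In frog 1, 31 copies passed as higher and 0 as lower, where 56.2% and 4.28% of all genes did, while frog 2 had 6 and 42, where 8.37% and 79.7% of all genes did. After median-ratio rescaling they were 14 and 12 of 49 in frog 1 and 14 and 18 of 50 in frog 2. Of all genes, 4483 were then called higher and 3755 lower among 20739 in frog 1, and 4974 and 4583 among 20419 in frog 2. *arg1.L* was listed at 0 in wild type at 5.5 hpf and reaching 5.70 ± 1.57 TPM (frog 1) and 3.24 ± 0.438 TPM (frog 2) at 7.5 hpf. With IAA its mean was 0.548 TPM under depletion against 1.18 TPM for the controls in frog 1 (-0.49, limma adjusted p = 0.800), and 0.346 against 2.23 TPM in frog 2 (-1.23, adjusted p = 0.000716). Without IAA it did not pass in frog 1 (-0.56, limma adjusted p = 0.414) and was lower in frog 2 (-0.77, limma adjusted p = 0.0227). The latter call was lost without treated pool 2.2 or 2.3 or control pool 2.3, the last leaving -0.24 (limma adjusted p = 0.374). At 7.5 hpf only wild type and control pools of frog 2 reached 1 TPM of *arg1.L*. *ckm.L* stood at 6.73 TPM in wild type of frog 1 but with IAA at 0.866 TPM in controls and 0.967 TPM in treated embryos (0.07, limma adjusted p = 0.988). In frog 2 it was 2.75 TPM in wild type, 1.74 TPM in controls with IAA and 0.800 TPM in treated embryos (-0.64, limma adjusted p = 0.0131). That call was lost with a pseudocount of 0.1 (limma adjusted p = 0.205) and without treated pool 2.1 or 2.2 or control pool 2.3. Without IAA *ckm.L* did not pass in frog 1 (-0.41, limma adjusted p = 0.557). In frog 2 it was lower without IAA by -0.97 (limma adjusted p = 0.000198), where 2.19% of all genes were called lower. That call held with a pseudocount of 0.1, after median-ratio rescaling and without any single pool. At 6.5 hpf *ckm.L* was already called lower in frog 2 in both schemes (-0.64 with IAA and -0.94 without, limma adjusted p = 0.0228 and 0.000142), as were 0.952% and 1.16% of all genes. The call with IAA was lost in 5 of the 6 fits that left out 1 pool (all but treated pool 2.2), and the one without IAA in none.

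None of the genes tested beside *gatm.L* on chromosome 3L was called lower in treated than in control embryos at 7.5 hpf. Of all genes 0.579% in frog 1 and 1.87% in frog 2 were called lower with IAA, and 0.641% and 2.19% without. No call among so few neighbours is near that share. The nearest on each side, *slc27a2.L*, a fatty acid transport protein 24786 bases away, and LOC108711415, 54782 bases away, had wild type levels at 7.5 hpf of 2.43 and 0.976 TPM in frog 1, and *slc27a2.L* 3.21 TPM in frog 2. *slc27a2.L* was present from 5.5 hpf on (1.26 TPM in frog 1 and 4.68 TPM in frog 2). Its treated minus control differences at 7.5 hpf were 0.22 and 0.21 with IAA and -0.12 and 0.08 without, none past the test. Of the 6 nearest genes (LOC108711410, LOC108711413, *slc27a2.L*, LOC108711415, *fsd2.L* and *whamm.L*), 3 were tested in frog 1 and 4 in frog 2. *whamm.L*, 210930 bases away, was called higher without IAA in frog 2 (0.34, limma adjusted p = 0.0365). There the median of all genes was 0.16 and 13% of genes were called higher. The call was lost after median-ratio rescaling (0.17, limma adjusted p = 0.226) and in 5 of the 6 fits that left out 1 pool (all but treated pool 2.1).

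The genes most like *gatm.L* were ranked by the lower of the Pearson correlations in the 2 frogs, over the 15 group means of log2(TPM + 1). Of 19580 genes 179 (0.914%) were over 0.9 and 62 over 0.95. The 15 points share libraries of 1 frog and 5 of them, at 7.5 hpf, hold nearly all the signal, so the value mainly describes the order of those. The first was *akap12.L* (0.993), a scaffold for protein kinase A, followed by *pcdh8.2.L* (0.987), *mespb.S* (0.987), a bHLH factor of presomitic mesoderm, *a2m.S* (0.986), a protease inhibitor, *lpar2.L* (0.983), a lysophosphatidic acid receptor, *nradd.S* (0.983), *rgs1.L* (0.980), a regulator of G protein signalling, *fam83b.S* (0.979), the ephrin receptor gene *epha4.L* (0.978) and *lin28a.S* (0.977). *akap12.L* went in frog 1 from 6.80 TPM in wild type to 6.07 and 1.59 TPM in control and treated embryos with IAA and 3.71 and 1.37 TPM without, and in frog 2 from 6.71 TPM to 4.17 and 1.36 TPM and 3.76 and 0.822 TPM. Its pools in control without IAA of frog 2 were 2.16, 3.44 and 5.69 TPM, in the same order as those of *gatm.L*. The 10 genes had treated means of 25.1 to 51.9% of control in frog 1 and 20.3 to 48.8% in frog 2 with IAA, and of 24.4 to 74.0% and 15.3 to 36.4% without, values that the ranking itself used. Ranked by Spearman correlation in place of Pearson, 1 of the 10 was kept.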

How the data were processed

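TPM values were deposited by the authors, who quantified paired 50-base reads of rRNA-depleted total RNA with kallisto (version 0.48) on the Xenbase v10.1 annotation and summed transcripts to genes. Each frog's table holds 45 libraries. Repeated entries of 1 gene name were added up, and 806 entries of frog 2 with no name (at most 0.0744% of a library) were left out. Symbols were matched to RefSeq for positions.

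Log2(TPM + 1) was fitted with limma (version 3.58.1, R 4.3.3) for each frog, with 1 mean for each of 15 groups and a mean-variance trend, over those genes (20891 and 20277) that reached 1 TPM in 3 or more libraries. P-values were adjusted by Benjamini-Hochberg over all of these at a threshold of 0.05. The SE of a gene is pooled over all 15 groups of a frog, so it is the same in every contrast. Single values of gatm.L were tested over both frogs by an exact two-sided permutation test within frogs. Fits and permutation tests were checked on simulated data. Depth is unknown, so no counting interval is given.

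The members, gene lists and tests were chosen with earlier results of these data known. Named genes are both gatm copies, list genes that passed in both frogs in one direction, all gamt, slc6a8, ckb and ckmt1b copies, 3 neighbours on each side of gatm.L, the 10 most like genes, the 3 genes ranked with gatm.L, and hbg1.L. arg1.L, ckm.L and slc6a8.L in single frogs, and akap12.L by pool, were described after their values were seen. Alternatives were a pseudocount of 0.1, other filters, median-ratio rescaling (genes of at least 10 TPM), rescaling without rRNA and tRNA, no trend, the contrast's libraries alone, the pool number as a block, and leaving out each library, the last added for 7.5 hpf and for other named genes after the data were seen.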

Additional observations from a re-analysis of the deposited data

Results flagged for a closer look

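Of 25 combinations of gene and group, each with 6 pools over both frogs, 7 had 1 pool far from the others by Dixon's test. Chance gives about 1 in 20, but that share does not apply where most pools are listed at 0 or where the frogs, whose tables are separate, differ. *gatm.L* at 7.5 hpf was left out, since its pools there were part of the choice of the gene. Both groups with no pool at 0 were wild type: pool 2.1 at 6.5 hpf, with 1.67 TPM of *gatm.L* and the next pool at 0.393 TPM, and pool 2.2 at 7.5 hpf, with 0.0337 TPM of *gatm.S* and the next pool at 0.269 TPM. In the other 5 at least 3 of the 6 pools were at 0. They were, for *gatm.L* at 5.5 hpf, the treated pool 2.1 with IAA (0.460 TPM) and the control pool 2.3 with IAA (0.327 TPM), and for *gatm.S* the control pool 2.3 without IAA (0.0742 TPM) and wild type pool 2.1 (0.107 TPM) at 5.5 hpf and the treated pool 1.1 without IAA (0.170 TPM) at 6.5 hpf.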

How the results depend on the processing

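The rises of *gatm.L* in wild type from 6.5 and from 5.5 to 7.5 hpf kept their direction and their side of the threshold under every alternative run. The difference at 6.5 hpf with IAA kept its direction under all of them but, in the exact permutation test over both frogs, lost its call in 6 of the 12 runs that left out 1 library (values from -0.35 to -0.26, exact permutation adjusted p from 0.0217 to 0.0867, with the p of the other 12 tests held). A mean of at least 5 TPM as a filter removes *gatm.L*, so it gave no value. With a pseudocount of 0.1, the wild type step from 5.5 to 6.5 hpf (0.87, limma adjusted p = 0.0477) and IAA in controls at 6.5 hpf (1.15, adjusted p = 0.0440) passed in frog 1, the former also with the libraries of the contrast alone (0.12, adjusted p = 0.0334). With that pseudocount 15961 and 3989 of the 20891 genes tested in frog 1 were called higher in these contrasts. The medians over all genes were 0.71 and 0.30. The same pseudocount gave -2.33 for window and -2.36 for persistent depletion in frog 2 at 7.5 hpf, reversed the injection (0.064) and treated IAA (-0.024) differences at 5.5 hpf in the exact permutation test, and left 0 pathway copies called lower in both frogs in either scheme at 7.5 hpf. Median-ratio rescaling gave 10 of 48 pathway copies called higher and 12 lower in both frogs from 5.5 to 7.5 hpf in wild type. In each frog alone, 4483 of 20739 and 4974 of 20419 genes were then called higher and 3755 and 4583 lower. The share of all genes called in both frogs is not given here. That rescaling kept 7 of the 10 genes most like *gatm.L*, where Spearman correlation kept 1.

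Leaving out 1 library at a time changed the direction, the side of the threshold or the size by more than the spread as follows, all on the log2(TPM + 1) scale. At 7.5 hpf the range was -1.97 to -1.36 for window depletion in frog 1, -2.14 to -1.24 for persistent depletion in frog 2, -1.14 to -0.25 for injection in frog 2, -0.014 to 0.88 for IAA in controls of frog 2 and -0.079 to 0.53 for IAA in treated embryos of frog 1. At 6.5 hpf it was -0.047 to 0.041 for persistent depletion in frog 1, -0.41 to 0.16 for injection in frog 2 (both frogs: -0.24 to 0.047), -0.093 to 0.21 for IAA in controls of frog 2 (both frogs: 0.061 to 0.21), and -0.041 to 0.054 and -0.085 to 0.041 for IAA in treated embryos of frogs 1 and 2. At 5.5 hpf it was -0.13 to 0.17 for window depletion in frog 2 (both frogs: -0.064 to 0.086), -0.039 to 0.024 for persistent depletion in frog 1, -0.26 to 0.062 for injection in frog 2 (both frogs: -0.11 to 0.050), and -0.084 to 0.19 for IAA in treated embryos of frog 2 (both frogs: -0.054 to 0.083). The wild type step from 5.5 to 6.5 hpf ranged between -0.0069 and 0.57 in frog 2. At 6.5 hpf, *gatm.L* minus *pcdh8.2.L* ranged from -0.35 to -0.25 with IAA and minus *lin28a.S* from 0.16 to 0.42 without.

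Pools of 1 number did not deviate together (108 pairs, r from -0.14 to 0.08, none over 0.1), so the numbers do not pair the samples. In the fit with a replicate block for the pool number the wild type rise from 6.5 to 7.5 hpf stayed at 3.34 in frog 1 and 2.62 in frog 2 (limma adjusted p = 1.79e-15 and 5.59e-09) and no *gatm.L* call changed. In that fit the *ckb.S* call of frog 2 without IAA at 7.5 hpf was lost (limma adjusted p = 0.0505), and 4 in place of 6 pathway copies were called higher there. The depth, unknown here, limits what can be said of values under 1 TPM.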
